A study of Mus musculus with 36 samples.

Results

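The genes that encode the proteins of the cytosolic ribosome were followed through sorted blood stem and progenitor cells of mice with mixed lineage leukaemia and of non-leukaemic controls. The members were the protein-coding genes whose symbol is Rpl or Rps with a number, an optional letter or an x, together with Rplp0, Rplp1, Rplp2 and Rpsa. There were 76 such genes among the 55414 gene identifiers of the tables, 46 of the large subunit and 30 of the small subunit. Another 326 identifiers with similar symbols were left out. Of these, 307 were pseudogenes, 9 were Rps6k kinases and 7 were genes named as like a ribosomal protein. The other 3 were Rps19bp1, Rps27rt and Rps3a1.

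The series holds 36 bulk RNA-seq libraries in 9 groups of 4. Leukaemia libraries came from mice that had developed terminal leukaemia and whose genotype the sample labels give as miR-130b overexpressing Kmt2a-AFF1+, whereas the series text names miR-130a. They were sorted from the central nervous system (CNS) and from the bone marrow (BM), and 12 mice gave a CNS and a BM library of a single cell type each. Control libraries were from the BM of 4 mice labelled miR-scramble overexpressing Kmt2a-AFF1+, which had no leukaemia, and each of these mice gave all 3 cell types. The fusion gene Kmt2a-AFF1 was therefore common to every group. The labels give no age and do not say what drives either transgene, and the series text speaks of a single control mouse where the labels list 4. All cells were sorted as Lin- and c-Kit+. LK/CLP lacked Sca-1, while HSC/MPP and LMPP carried it and were parted by Flt3, which HSC/MPP lacked and LMPP carried.

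Every cytosolic ribosome is built from a single copy of nearly all of these proteins, assembled on ribosomal RNA in the nucleolus before export of the subunits. The messenger RNAs of ribosomal proteins are among the most abundant in a growing cell, and in mammals most begin with a terminal oligopyrimidine (TOP) tract, a C followed by a run of C and T, through which mTORC1 and Larp1 set their translation. Blood stem cells are known for a low and tightly held rate of protein synthesis, and loss of a copy of a ribosomal protein gene such as RPS19 causes Diamond-Blackfan anaemia in humans.

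Sequence around the transcription start was available in RefSeq (build GRCm38.p6) for 56 of the 76 members. A TOP motif was taken as a C followed by at least 4 bases that are each C or T, read on the strand of the gene, with the C within 10 bases either side of an annotated start. It was present in 34 of the 56 members (60.7%), against 34.4% of the 27025 genes in the same table. Counted exactly at an annotated start, it was present in 13 members (23.2%) and in 3.0% of all genes. The motif was at an annotated start in 3 of 31 translation factor genes (9.7%) and in 0 of 59 ribosome biogenesis genes. A member that did not meet this rule may still have a tract, since the starts used in these cells were not examined. In Rps25, Rpl4 and Rpl13, which did not meet it, a run of C and T lay more than 10 bases upstream of the start. The 40-base windows below run from 25 bases before the start to 15 after it. They are shown because the rule was met more often in the family than among all genes, and by some members but not others. The part of the motif inside the window is in capitals.
Rps6 (chr4:86857353-86857392, minus strand): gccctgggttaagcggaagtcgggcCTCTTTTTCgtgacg
Rplp2 (chr7:141447626-141447665, plus strand): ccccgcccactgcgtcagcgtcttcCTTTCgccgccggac
Rpl15 (chr14:18270972-18271011, minus strand): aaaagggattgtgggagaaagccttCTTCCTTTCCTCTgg
Rps18 (chr17:33955651-33955690, minus strand): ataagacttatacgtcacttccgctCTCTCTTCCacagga
Rpl38 (chr11:114668555-114668594, plus strand): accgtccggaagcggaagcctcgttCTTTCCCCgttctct
Rps2 (chr17:24720038-24720077, plus strand): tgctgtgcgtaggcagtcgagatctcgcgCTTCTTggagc
Rps12 (chr10:23787195-23787234, minus strand): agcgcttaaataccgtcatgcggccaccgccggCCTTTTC
Rpl10 (chrX:74270791-74270830, plus strand): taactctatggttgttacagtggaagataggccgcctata
Rpsa (chr9:120127741-120127780, plus strand): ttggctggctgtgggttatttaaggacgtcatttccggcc
Rplp0 (chr5:115559442-115559481, plus strand): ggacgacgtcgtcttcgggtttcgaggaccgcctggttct
In Rps6, Rplp2, Rpl15, Rps18 and Rpl38 the motif began at the annotated start, in Rps2 and Rps12 it began downstream of it, and the windows of Rpl10, Rpsa and Rplp0 held none near a start. Members with and without a motif near an annotated start, by this rule, had similar medians. In control BM HSC/MPP against LK/CLP the median log2 fold change was -1.64 for 33 members with the motif, -1.61 for 21 without it and -1.64 for the 20 with no window in the table.

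Library totals ran from 1909638 to 30442297 counts, and the median member had between 225 and 8267 counts per library. Part of each library lay evenly over exons whether or not blood cells use the gene, and this uniform background, estimated from 1498 sensory receptor genes, made up 0.443% to 27.7% of the counts. It was highest in control HSC/MPP and control LMPP. The sort genes followed the gates in part. Ly6a, which encodes Sca-1, was at 4.996 to 28.003 CPM (counts scaled to the library total) in the HSC/MPP and LMPP libraries and at 0.228 to 3.02 CPM in LK/CLP libraries. Flt3 was at 13.9 to 92.5 CPM in leukaemia HSC/MPP and 80.6 to 282 CPM in leukaemia LK/CLP, against 25.6 to 32.8 and 20.1 to 37.6 CPM in the same control types. The libraries that stood apart were leukaemia CNS HSC/MPP replicate 1, where 9 macrophage markers summed to 1501 CPM, leukaemia BM LMPP replicate 1, where 6 neutrophil markers summed to 2785 CPM, and leukaemia BM LMPP replicate 3, with 1909638 counts. In control HSC/MPP replicate 3 the immunoglobulin gene Ighm was at 3406 CPM, against 222 to 325 CPM in the other 3 libraries of its group, and this library was left out only by itself. In bulk samples, fewer cells of a type and less RNA per cell cannot be told apart.

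Levels are given per length, as TPM, counts divided by the length of a principal transcript and scaled to a fixed total, and are relative to all genes of a library. Of the 76 members, 72 averaged over 100 TPM across the 36 libraries, and 73 were among the 500 most abundant of 11452 protein-coding genes above background. The highest were Rplp2 (1076 TPM), a stalk protein that recruits elongation factors, Rpl26 (1046 TPM), Rps6 (995 TPM), the classical substrate of the S6 kinases, Rpl41 (933 TPM) and Rpsa (883 TPM), the small subunit protein also known as the laminin receptor. The lowest were Rpl24 (4.63 TPM), Rps10 (11.1 TPM), Rpl13a (17.9 TPM), Rps20 (96.6 TPM) and Rpl35 (149 TPM). For Rps20 the value was set by the transcript chosen, since the gene ranked 73 by this length and 18 by coding length.

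**Figure D1:**
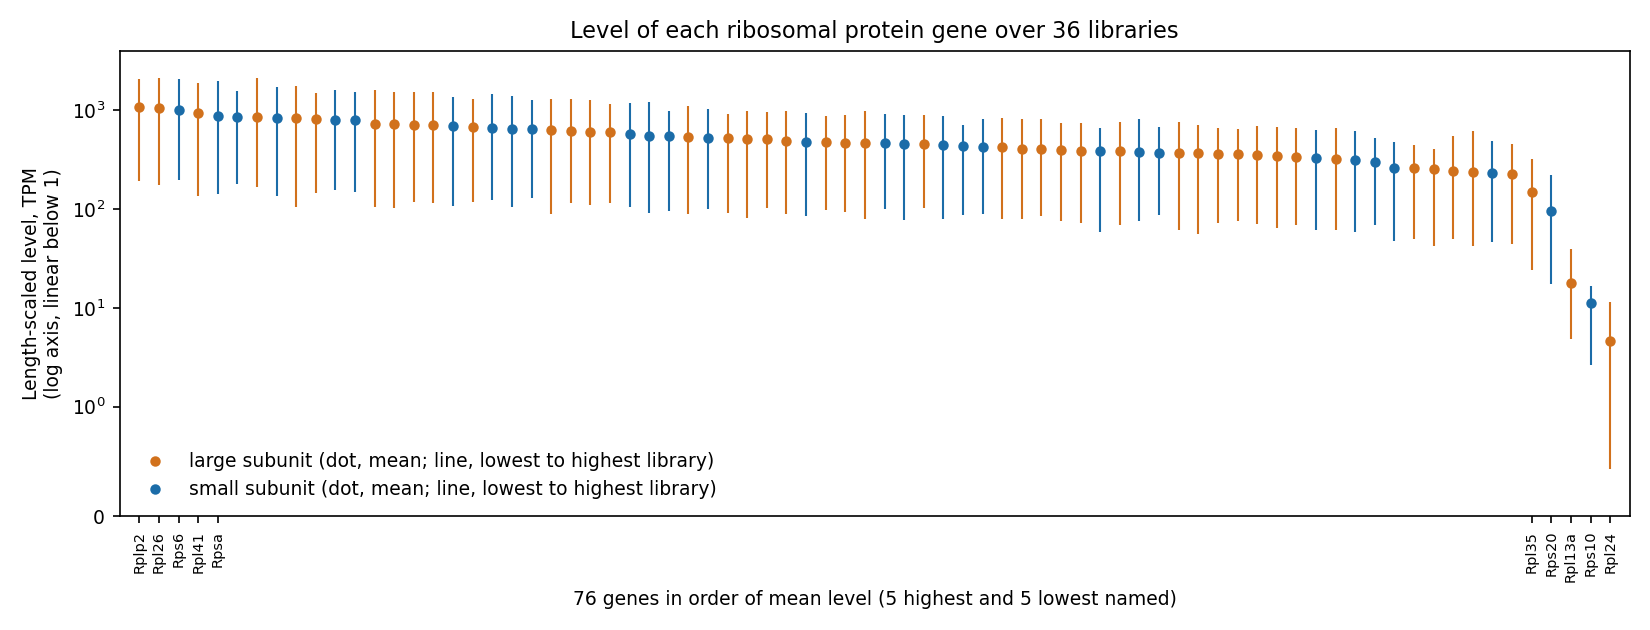
Length-scaled level of each of the 76 members, ordered by mean, with TPM on a log axis that is linear below 1 (dot, mean of 36 libraries; line, lowest to highest library; orange, large subunit; blue, small subunit). All but 4 members averaged over 100 TPM, and Rpl13a, Rps10 and Rpl24 lay far under the rest at 17.9, 11.1 and 4.63 TPM.

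Rpl24, Rps10 and Rpl13a are uncertain as measured. Each overlaps an annotated read-through gene on the same strand that held 0 counts in all libraries (Gm28037, RPS10-NUDT3 and Gm45713), and shared 69.4%, 90.6% and 57.4% of its 50-base words with it. Over 36 libraries Rpl24 held 1093 counts, Rps10 held 1853 and Rpl13a held 6445. The 4 pseudogenes named after Rps10 together held 1921% of its counts. How the authors' counting treated reads that fit more than a single gene is not stated in the labels.

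Sequence sharing was common in the family. The median member shared 55.5% of its 50-base words with another annotated gene, up to 98.6% for Rps27, and 46 members shared over 50%. Named ribosomal protein pseudogenes held counts equal to 24.6% to 37.99% of the members' counts per library, the most being 231226 counts on Rps6-ps4 over all libraries. Absolute levels of such members, and differences between levels of members, are uncertain to that extent.

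In control marrow the ribosomal protein genes were far lower in HSC/MPP than in LK/CLP. The 76 genes together took 0.748, 0.690, 0.685 and 0.549% of the counts in the 4 control HSC/MPP libraries, against 2.90, 2.48, 2.44 and 2.63% in control LK/CLP. The means were 0.668 ± 0.0842% and 2.62 ± 0.208% (SD, n = 4 each), and the groups did not overlap. The level of the median member averaged 123 ± 19.1 TPM in HSC/MPP and 696 ± 92.2 TPM in LK/CLP (SD, n = 4 each), a difference of -2.51 on the log2 scale.

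Rpl8, a large subunit protein beside the peptidyl transferase centre, had 187, 164, 169 and 124 TPM in HSC/MPP and 1557, 1190.1, 1072 and 1313 TPM in LK/CLP. Rps2, at the entry of the messenger RNA channel, had 140.4, 140.1, 137 and 108 TPM in HSC/MPP and 1207, 969.7, 806 and 1082 TPM in LK/CLP. Rpsa had 215, 208, 218 and 147 TPM in HSC/MPP and 1703, 1224, 1121 and 1368 TPM in LK/CLP. For each of these genes every LK/CLP library stood several-fold above every HSC/MPP library.

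The test was edgeR's quasi-likelihood test over all genes above background, with Benjamini-Hochberg adjustment and a threshold of 0.05, and its log2 fold changes are relative to the genes above background. All 74 members that entered were lower in control HSC/MPP than in LK/CLP, with a median of -1.64, while 33.7% of all 11178 genes tested were lower and the median of all genes was 0.03. Rpl24 and Rps10 did not pass the filter in the control libraries. The largest differences were -2.11 ± 0.22 (SE, adjusted p = 1.92e-07) for Rpl8 and -2.06 ± 0.21 (SE, adjusted p = 1.44e-07) for Rps2, followed by Rpl29 (-2.06), Rpl4 (-2.02), Rplp0 (-1.99), Rps23 (-1.94) and Rps12 (-1.93). The smallest was -1.10 for Rps24. By level, 75 of the 76 members had every HSC/MPP library under every LK/CLP library, as did 43.3% of all genes compared. Large and small subunit genes had medians of -1.63 (n = 45) and -1.64 (n = 29).

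Members with known roles moved with the rest. Among the stalk proteins, Rplp0 fell by 1.99 on the log2 scale in control HSC/MPP, Rplp1 by 1.78 and Rplp2 by 1.73. Rps19, the gene most often mutated in Diamond-Blackfan anaemia in humans, had a log2 fold change of -1.52, and Rps14, whose loss contributes to a human myelodysplastic syndrome, had -1.16. Rpl5 (-1.69) and Rpl11 (-1.53), which bind Mdm2 when they are free of the ribosome, fell as well. Of the 19 members on a list of genes mutated in ribosomopathies, 18 entered the test, and 18 were lower with a median of -1.63. The other members followed, with Rpl22 at -1.60, Rps6 at -1.58, Rpl3 at -1.62, Rpl10 at -1.80, Rps4x at -1.54 and Rpl38 at -1.64.

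**Figure D2:**
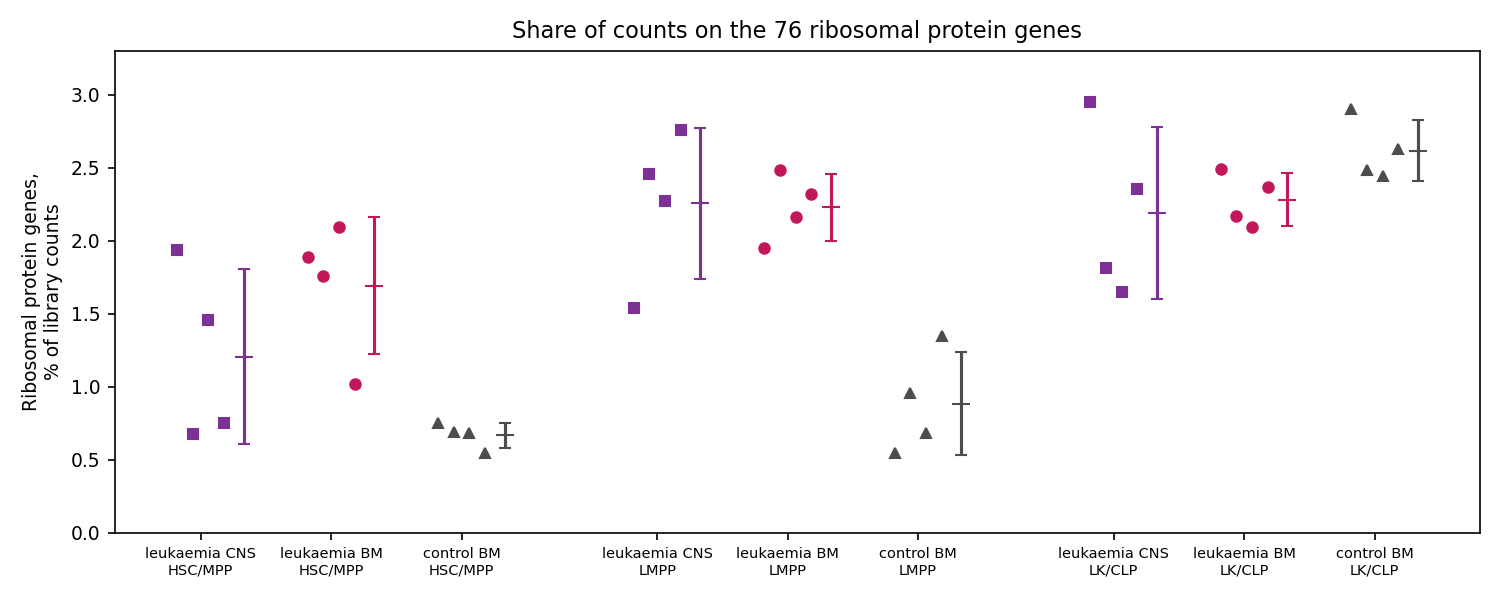
Share of library counts on the 76 ribosomal protein genes, in percent, by group (symbol, a library; bar, mean and SD of 4 libraries). Control HSC/MPP and LMPP libraries sit between 0.544% and 1.35%, control LK/CLP between 2.44% and 2.90%, and leukaemia BM libraries of all types between 1.02% and 2.49%.

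The background moved with this result. It made up 27.7, 26.6, 22.9 and 21.6% of the counts in control HSC/MPP and 6.48, 10.7, 12.3 and 9.29% in control LK/CLP. With it subtracted, the share of the members was 0.743% to 1.15% in control HSC/MPP and 3.71% to 4.83% in control LK/CLP, so the groups stayed apart. With the background share as a covariate in the fit, 41 of the 74 members were still lower and the median was -0.93. The share of all genes lower in that fit is not given here. The backgrounds of these groups did not overlap, so that fit cannot fully part background from cell type. Markers also differed, since 5 erythroid markers summed to 33.5 to 42.8 CPM in HSC/MPP and 267 to 337 CPM in LK/CLP, and 4 stem cell markers to 193.5 to 226 CPM and 34.1 to 49.6 CPM. Their part in the result was not tested.

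**Figure D3:**
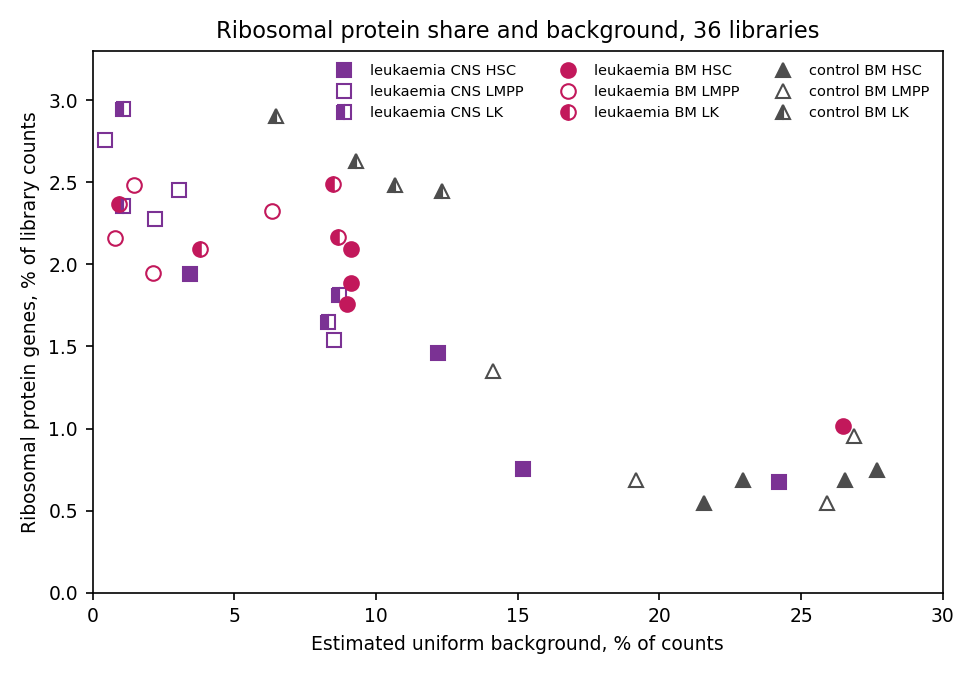
Share of counts on the 76 ribosomal protein genes against the estimated uniform background, both in percent of library counts, for each of 36 libraries (squares, leukaemia CNS; circles, leukaemia BM; triangles, control BM; filled, HSC/MPP; open, LMPP; part-filled, LK/CLP). Libraries with a background over 14% had shares of at most 1.35%, and control LK/CLP had shares of 2.44% to 2.90% at backgrounds of 6.48% to 12.3%.

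Control LMPP resembled control HSC/MPP in this respect. The members took 0.544, 0.954, 0.686 and 1.35% of the counts in control LMPP, against 2.90, 2.48, 2.44 and 2.63% in control LK/CLP. Of the 74 members tested, 74 were lower in LMPP with a median of -1.13, against 31.6% of all genes, and Rpl8 (-1.79 ± 0.21 (SE, adjusted p = 1.45e-06)) and Rps2 (-1.73 ± 0.20 (SE, adjusted p = 1.19e-06)) again differed most. Next came Rpl29 (-1.61), Rplp0 (-1.58), Rpl14 (-1.54), Rpl19 (-1.49) and Rps23 (-1.49). The background was 25.9, 26.9, 19.2 and 14.1% in these LMPP libraries, and with it as a covariate 21 members were still lower, with a median of -0.62. The 31.6% is of the fit without this covariate, and the share of all genes with it is not given here. Here too the backgrounds did not overlap those of LK/CLP.

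Between control HSC/MPP and control LMPP no member passed the threshold, where 2.23% of all genes did. All 74 had negative log2 fold changes in HSC/MPP, with a median of -0.48, and 52 had an unadjusted p under 0.05, where 10.7% of all genes were lower at that p. The smallest p values were for Rps20 (-0.66 ± 0.20 (SE, adjusted p = 0.100)), Rpl36a (-0.57 ± 0.17 (SE, adjusted p = 0.109)) and Rps28 (-0.58 ± 0.18 (SE, adjusted p = 0.113)). DESeq2 called 5 members, and without control LMPP replicate 1 edgeR called 48. The 2.23% is of the main fit, and the share of all genes called in these other fits is not given here. Control LMPP replicates 1 and 3 had the lowest shares of counts on the members in their group. The 4 LMPP libraries were thus spread over a wider range than the HSC/MPP libraries, which lay inside it.

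In leukaemia marrow the cell types lay closer together. The members took 1.89, 1.76, 2.10 and 1.02% of the counts in leukaemia BM HSC/MPP, 1.95, 2.49, 2.16 and 2.32% in BM LMPP and 2.49, 2.17, 2.09 and 2.37% in BM LK/CLP. Replicate 4 of HSC/MPP was the lowest of the 12 libraries and had a background of 26.5%, against 8.96% to 9.12% in the other 3 libraries of its group. Rpl8 had 756, 767, 845 and 377 TPM in leukaemia BM HSC/MPP and 1181, 1030.5, 1159 and 1278 TPM in BM LK/CLP, so that each HSC/MPP library was under each LK/CLP library, by much less than in control marrow.

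No member passed the threshold between leukaemia BM HSC/MPP and LK/CLP, where 0.0315% of 15870 genes did. The median log2 fold change was -0.58, and 40 members had an unadjusted p under 0.05, where 9.05% of all genes were lower at that p. DESeq2 also called 0, with 56 members at an unadjusted p under 0.05. Among the smallest p values were those of Rps13 (-0.61 ± 0.22 (SE, adjusted p = 0.194)) and Rps2 (-0.68 ± 0.24 (SE, adjusted p = 0.199)). Values of the members named above ran close together, from -0.68 for Rplp0 and -0.68 for Rplp2 through -0.58 for Rps14 to -0.46 for Rps19 and -0.43 for Rpl10. By level, 40 members had every HSC/MPP library under every LK/CLP library, as did 7.29% of the 16980 genes compared.

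The same held against LMPP. No member was called between leukaemia BM HSC/MPP and LMPP, where 0.0693% of all genes were. The median was -0.52, 33 members had an unadjusted p under 0.05 where 8.78% of all genes were lower, and Rps15 (-0.70 ± 0.25 (SE, adjusted p = 0.168)) was among the members of smallest p. DESeq2 called 0 here too, with 41 at an unadjusted p under 0.05. Between leukaemia BM LMPP and LK/CLP the median was -0.05 (0.00 with no scaling beyond total counts), and 0 members had an unadjusted p under 0.05 by edgeR (5.26% of all genes) or by DESeq2, where edgeR called 0.0063% of all genes. Among the smallest p values there were those of Rplp2 (-0.25 ± 0.25 (SE, adjusted p = 0.979)) and Rps27a (-0.21).

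Leukaemia HSC/MPP from marrow had higher ribosomal protein transcripts than control HSC/MPP. Of the 76 members, 74 were higher, with a median log2 fold change of 1.30, against 27.6% of all 15303 genes tested and a median of -0.03 for all genes. Large and small subunit genes had the same median of 1.30. By level, 73 members had every leukaemia library above every control library, against 28.5% of all genes. The controls came from a set of mice of their own and from a separate table, and the labels give them another miRNA transgene (miR-scramble), so disease, transgene, set of mice and table cannot be told apart.

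Rpl10, a large subunit protein that joins late in assembly, changed most (1.80 ± 0.27 (SE, adjusted p = 1.83e-05)), with 696, 669, 781 and 298 TPM in leukaemia BM HSC/MPP and 150.1, 131, 135 and 89.6 TPM in control HSC/MPP. Rpl4 (1.67), Rpl8 (1.62), Rps25 (1.58), Rps7 (1.54), Rpl35 (1.52), Rpl41 (1.51) and Rpl29 (1.50) followed. Rpsa had 832, 816, 996 and 381 TPM in leukaemia and 215, 208, 218 and 147 TPM in control HSC/MPP, a log2 fold change of 1.46 ± 0.27 (SE, adjusted p = 2.00e-04). Even the leukaemia library of highest background, replicate 4, stood above every control library for both genes.

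Genes tied to human anaemia changed like the rest, with Rps19 at 1.41, Rpl5 at 1.38, Rpl11 at 1.14 and Rps14 at 0.96, and 18 of the 19 ribosomopathy genes were higher. Rpl22, whose loss is found in human T-cell leukaemia, was at 1.09, Rps6 at 1.25, Rpl3 at 1.32, Rps4x at 1.34 and Rpl38 at 1.32. In the stalk, Rplp0 (1.32) and Rplp2 (1.29) had larger log2 fold changes than Rplp1 (0.79 ± 0.23 (SE, adjusted p = 0.00908)). The members that did not pass were Rpl24 (1.03 ± 0.44 (SE, adjusted p = 0.0580)) and Rps10 (-0.76 ± 0.39 (SE, adjusted p = 0.105)), both low and uncertain.

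Leukaemia LMPP differed from control LMPP by as much. There 74 of 76 members were higher with a median of 1.27, against 32.8% of all genes, and 75 had every leukaemia library above every control library, against 42.8% of all genes. They were led by Rpl8 (1.83 ± 0.25 (SE, adjusted p = 5.36e-06)), which had 1065, 1381, 1142 and 1117 TPM in leukaemia BM LMPP and 106, 205, 124 and 324 TPM in control LMPP. Rpl10 (1.55), Rpl19 (1.55), Rpl37 (1.53), Rpl29 (1.48) and Rpl4 (1.48) were among the next, and Rplp1 was again among the smallest called (0.91). The other members named above lay between Rpl22 (0.96) and Rpsa (1.48), with Rps14 at 1.20, Rps19 at 1.26 and Rpl5 at 1.38. Backgrounds did not overlap in this pair, at 2.14, 1.47, 0.784 and 6.34% in leukaemia BM LMPP and 25.9, 26.9, 19.2 and 14.1% in control LMPP, and with background as a covariate 1 member was called and the median was 0.75. In HSC/MPP the same covariate left 73 members called, with a median of 1.11. Shares of all genes called with the covariate are not given here for either cell type. Of the leukaemia BM HSC/MPP libraries, only replicate 4 had a background within the range of control HSC/MPP.

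In LK/CLP the family did not separate leukaemia from control marrow. Rpl13a was the single member called (-0.71 ± 0.24 (SE, adjusted p = 0.0396)), at 18.7, 21.5, 14.8 and 21.7 TPM in leukaemia BM and 38.5, 32.1, 26.2 and 34.1 TPM in control, where 7.14% of all genes were lower. Its low counts and the sequence it shares with a read-through gene make it uncertain. The median of the members was -0.06, and all other members missed the threshold. The median turned to 0.29 with a filter on counts alone and 0.25 with no filter, where the medians of all genes were -0.25 and -0.28, and to 0.01 without leukaemia BM LK/CLP replicate 2. Rplp1 came closest (-0.65 ± 0.23 (SE, adjusted p = 0.0581)), with 929.6, 1078, 1009 and 1119 TPM in leukaemia BM LK/CLP and 2096, 1566, 1271 and 1843 TPM in control LK/CLP, groups that did not overlap. Rplp0 had a log2 fold change of -0.29, Rplp2 of -0.06, Rpsa of -0.08, Rps19 of 0.04, Rpl10 of 0.13 and Rpl5 of -0.12, none of them past the threshold. The call of Rpl13a rested on the setting, since 0 members were called with a filter on counts alone or with no filter, and 0 without any single library except control LK/CLP replicate 3. With 2 other scalings, with DESeq2, with the background covariate, without that replicate or without the libraries that stood apart, 2 or 3 members were called, Rplp1 and Rpl13a among them each time.

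Tested directly, the gap between HSC/MPP and LK/CLP differed between leukaemia and control marrow. For 71 of 76 members the HSC/MPP to LK/CLP log2 ratio was higher in leukaemia BM than in control BM, with a median difference of 1.36, against 14.6% of all genes. The largest were Rps12 (1.78 ± 0.37 (SE, adjusted p = 0.00219)), a small subunit protein, Rpl4 (1.73 ± 0.38 (SE, adjusted p = 0.00303)) and Rpl8 (1.69 ± 0.34 (SE, adjusted p = 0.00161)). Rps2 (1.69), Rpl29 (1.68), Rpl10 (1.67), Rpl41 (1.66) and Rpl30 (1.63) followed. Rps24, Rpl37, Rps27, Rps10 and Rpl24 were the members that did not pass, named after their values were seen.

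**Figure D4:**
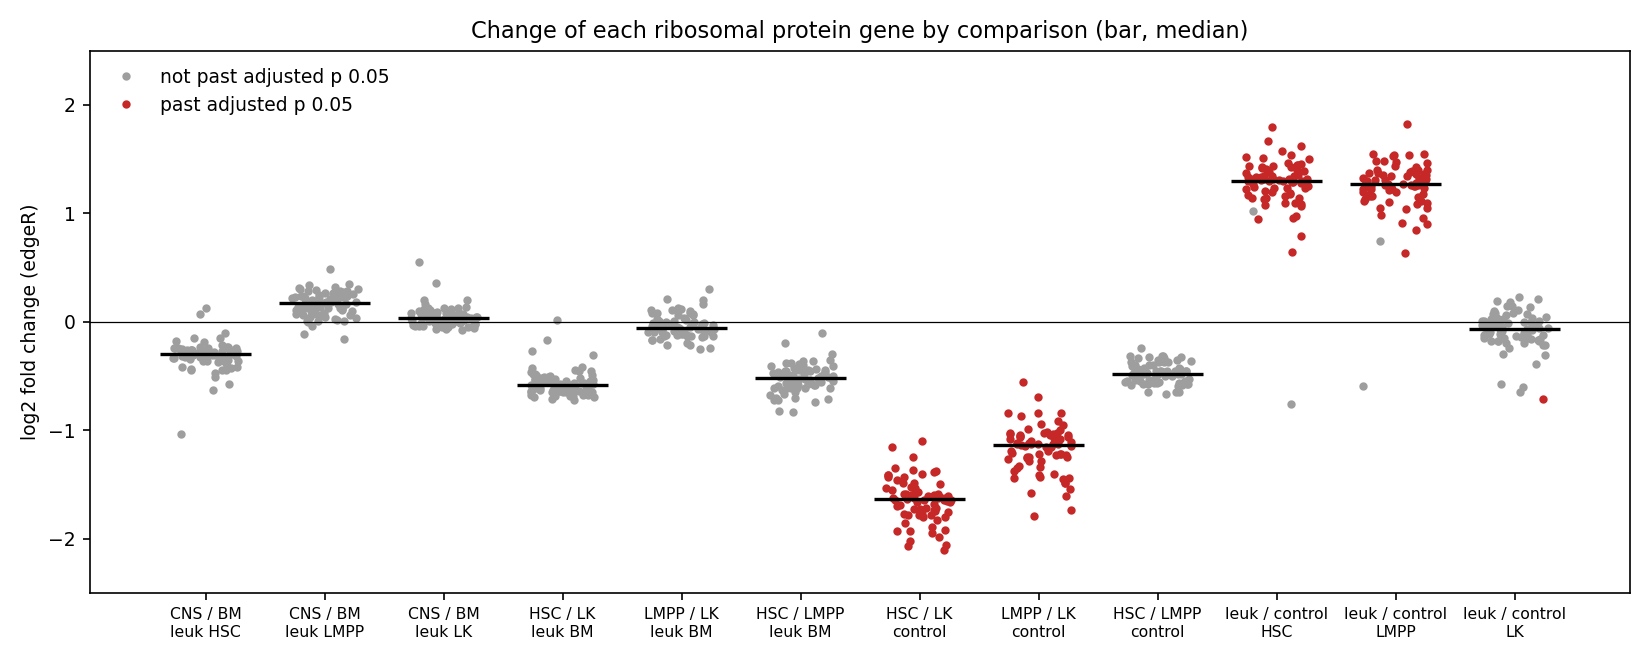
Log2 fold change from edgeR of each ribosomal protein gene in 12 comparisons, first-named group over the second (dot, a gene; red, past an adjusted p of 0.05; bar, median). All tested members lie below 0 in control HSC/MPP and LMPP against LK/CLP, nearly all lie above 0 in leukaemia against control HSC/MPP and LMPP, and none of the CNS to BM comparisons holds a called gene.

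Markers of other cells moved with the disease comparisons. The summed level of 6 neutrophil markers was 405 to 6561 CPM in leukaemia BM LK/CLP and 14.7 to 22.8 CPM in control LK/CLP. In HSC/MPP it was 332 to 1067 CPM in leukaemia BM and 44.1 to 68.9 CPM in control. In LMPP it was 4.85 to 2785 CPM in leukaemia BM and 35.5 to 84.9 CPM in control. Of these 6 genes, 6 were higher in leukaemia LK/CLP, 4 in HSC/MPP and 5 in LMPP, and none was at 0 in all libraries. In LMPP the high values were those of leukaemia BM replicate 1, and in the other 3 leukaemia BM LMPP libraries 5 of the 6 genes, all but S100a9, lay under every control LMPP library. Erythroid markers summed to 23.7 to 115 CPM in leukaemia BM LK/CLP and 267 to 337 CPM in control LK/CLP, whereas in HSC/MPP they summed to 72.5 to 125 CPM in leukaemia BM and 33.5 to 42.8 CPM in control. Stem cell markers summed to 67.4 to 126 CPM in leukaemia BM HSC/MPP and 193.5 to 226 CPM in control HSC/MPP. Neither pair of HSC/MPP groups overlapped. Their part in these results was not tested. Without the libraries of leukaemia BM LMPP that stood apart, which left 2 in that group, 73 members were higher in LMPP. Without control HSC/MPP replicate 3, 73 were higher in leukaemia than in control HSC/MPP, and 74 were lower in control HSC/MPP than in LK/CLP.

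The CNS comparison asks how leukaemia cells differ between their niches. Averaged over the 3 cell types, no member was called between CNS and BM, none had an unadjusted p under 0.05 where 9.36% of all genes did, and the median log2 fold change of CNS over BM was -0.02. Of all genes, 0% passed the adjusted threshold. With a replicate block by mouse 414 genes passed, none of them a member. The smallest p values were for Rps19 (-0.21 ± 0.14 (SE, adjusted p = 0.780)), Rps10 (0.32 ± 0.24 (SE, adjusted p = 0.809)) and Rpl13a (0.19 ± 0.15 (SE, adjusted p = 0.833)). Rplp0 was at -0.03, Rplp1 at 0.08, Rplp2 at -0.06 and Rpsa at -0.06, all within their SE of 0. DESeq2 called 0 members as well, and 0 had an unadjusted p under 0.05 with it.

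Within HSC/MPP the CNS libraries were split. The members took 1.94, 0.675, 1.46 and 0.753% of the counts in CNS HSC/MPP and 1.89, 1.76, 2.10 and 1.02% in BM HSC/MPP of the same mice in the same order. Rpl8 had 781, 186, 703 and 194 TPM in CNS and 756, 767, 845 and 377 TPM in BM. Replicates 2 and 4 of the CNS were thus near the control HSC/MPP range and replicates 1 and 3 near the BM range. The background was 3.44, 24.2, 12.2 and 15.2% in CNS and 9.12, 8.96, 9.11 and 26.5% in BM. It was higher where the share was lower in mice 1 to 3, whereas in mouse 4 the CNS library was lower in both.

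Mouse by mouse, the median member differed between CNS and BM HSC/MPP by -0.06, -1.90, -0.56 and -0.83 on the log2 TPM scale, and 25, 0, 2 and 0 of the 76 members were higher in the CNS. In fits that did not pair the libraries by mouse, no member was called by edgeR or by DESeq2, and edgeR called 0% of all genes. There 2 members had an unadjusted p under 0.05 by edgeR (2.96% of all genes) and 3 by DESeq2. The median log2 fold change of the members in the edgeR fit was -0.29. The smallest p values belonged to Rps19 (-0.58 ± 0.24 (SE, adjusted p = 0.999)), Rpl39 (-0.63) and Rpl24 (-1.04). By edgeR with a block by mouse, the smallest unadjusted p values were 0.00519 for Rpl39 and 0.0142 for Rps19. Their adjusted p values there were 0.642 and 0.657. Without the libraries that stood apart, in the unpaired fit, the median was -0.60, and 56 members had an unadjusted p under 0.05 in place of 2, still with 0 past the adjusted threshold. The 2.96% is of the fit with all libraries, and the share of all genes at that p in this setting is not given here. Of HSC/MPP, that setting left out only CNS replicate 1, which had the highest share of the CNS libraries, and kept the BM library of its mouse. Macrophage markers summed to 51.5 to 1501 CPM in CNS HSC/MPP and 36.3 to 96.2 CPM in BM HSC/MPP. Of the 9, 0 were called, where 0% of all genes were.

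LMPP and LK/CLP showed no common direction. Members took 1.54, 2.45, 2.27 and 2.75% of the counts in CNS LMPP and 1.95, 2.49, 2.16 and 2.32% in BM LMPP, and the mouse pairs differed by -0.61, -0.06, -0.01 and 0.47. In LK/CLP they took 2.95, 1.81, 1.65 and 2.36% in CNS and 2.49, 2.17, 2.09 and 2.37% in BM, and the pairs differed by 0.45, -0.38, -0.41 and -0.01. The medians in the fit were 0.17 for LMPP and 0.04 for LK/CLP (0.01 and -0.00 with no scaling beyond total counts), with 0 members at an unadjusted p under 0.05 in either by edgeR (8.37% and 2.43% of all genes), and 1 and 0 by DESeq2, which called 0. The smallest p values were for Rplp1 (0.48 ± 0.26 (SE, adjusted p = 0.659)), Rpl27 (0.34) and Rpl34 (0.35) in LMPP, and for Rpl13a (0.36 ± 0.26 (SE, adjusted p = 1.000)), Rps10 (0.55) and Rpl41 (0.20) in LK/CLP. A test of whether the CNS to BM difference varied between the cell types also called 0 members by edgeR and by DESeq2. By edgeR, 0% of all 15870 genes passed in that test, and 0% passed between CNS and BM in LMPP or in LK/CLP.

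The members kept nearly constant proportions to each other, with a few exceptions, described here with no test. Relative to the median member of the same library, the most variable over the 9 groups were Rps10, Rpl24 and Rpl13a, all of low counts, and then Rpl8 and Rplp1. Rpl8 was 0.43, 0.34, 0.42 and 0.38 log2 units above the median member in control HSC/MPP and 0.22, 0.18, 0.18 and 0.31 in control LMPP. It was 0.71, 0.89, 0.66 and 0.93 above it in leukaemia BM HSC/MPP and 0.97, 0.87, 0.86 and 0.82 in control LK/CLP. The low ratio was thus found in control HSC/MPP and control LMPP. Among leukaemia BM HSC/MPP libraries the ratio was highest in replicate 4, at 0.93, which had the lowest share of counts on the members in its group.

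Rplp1 went the other way. It stood 0.52, 0.68, 0.65 and 0.95 log2 units above the median member in leukaemia BM HSC/MPP and 1.14, 1.20, 1.05 and 1.04 in control HSC/MPP. In LK/CLP it was 0.66, 0.84, 0.78 and 0.70 in leukaemia BM and 1.39, 1.26, 1.11 and 1.31 in control. In LMPP it was 1.07, 0.97, 1.02 and 1.05 in CNS and 0.73, 0.85, 0.41 and 0.77 in BM, groups that did not overlap, and control LMPP had 1.14, 1.13, 0.73 and 1.04. Its relative level was thus lower in leukaemia BM than in control in both HSC/MPP and LK/CLP, and CNS LMPP lay within the range of control LMPP.

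Rpl10 and Rps12, named after their values were seen, came next. Rpl10 was 0.60, 0.69, 0.54 and 0.59 in leukaemia BM HSC/MPP and 0.11, 0.02, 0.09 and -0.08 in control HSC/MPP, and its group means were 0.43 to 0.61 over the 6 leukaemia groups and 0.03 to 0.22 over the 3 control groups. For Rps12 the control LK/CLP libraries stood apart, at 0.46, 0.28, 0.50 and 0.40 in leukaemia BM LK/CLP and 0.86, 1.04, 0.81 and 0.93 in control LK/CLP. Rpl10 shares 92.1% of its 50-base words with Rpl10-ps3, and Rps12 shares 90.1% with Rps12-ps3. The proportions of both may therefore hold reads of the pseudogenes, which was not tested.

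**Figure D5:**
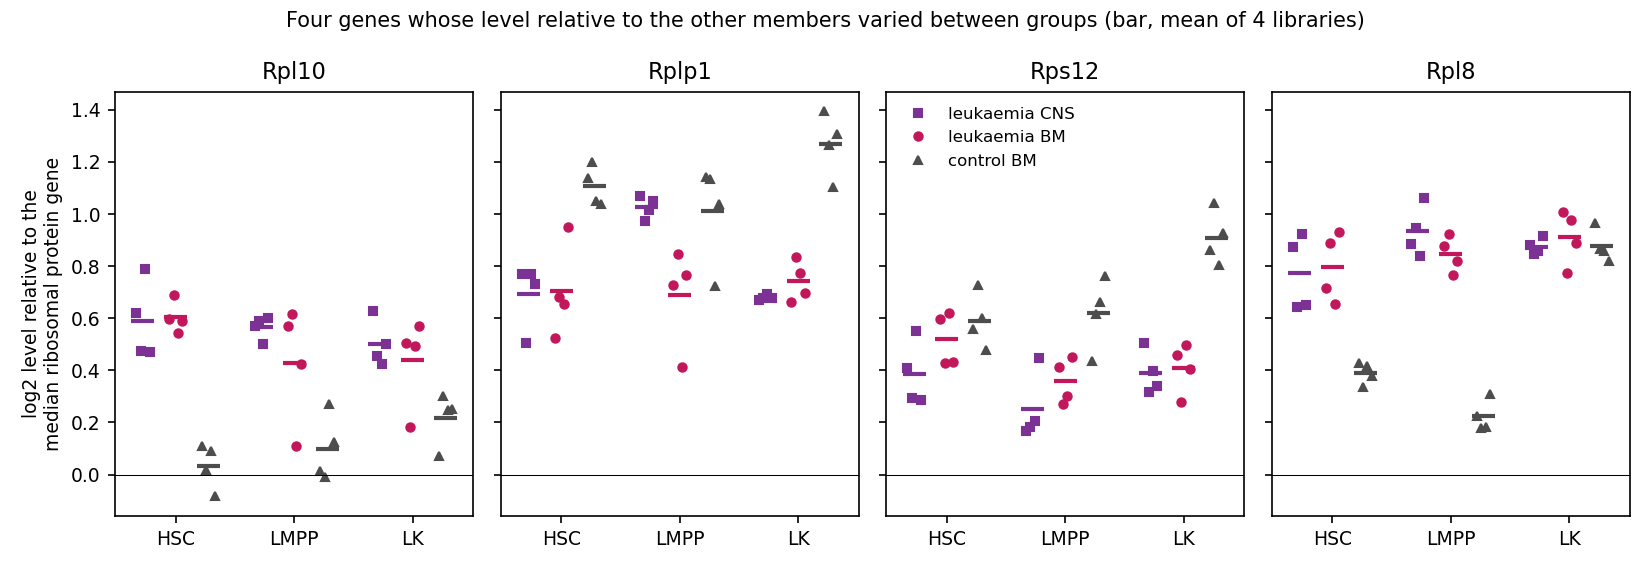
Log2 level of Rpl10, Rplp1, Rps12 and Rpl8 relative to the median ribosomal protein gene of the same library, by cell type and group (symbol, a library; bar, mean of 4). Rpl10 is higher in leukaemia groups, with means of 0.43 to 0.61 against 0.03 to 0.22 in control, Rplp1 and Rps12 are highest in control LK/CLP, and Rpl8 is lowest in control HSC/MPP and LMPP.

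Genes that work with the ribosome were read from lists of related genes. All 40 translation factors were lower in control HSC/MPP than in LK/CLP, with a median of -1.59, 39 of 40 were higher in leukaemia than in control HSC/MPP with a median of 1.27, and 38 were higher in LMPP. Of all genes, 33.7% were lower in the first of these comparisons, 27.6% higher in the second and 32.8% higher in LMPP. Eef1a1, which brings aminoacyl-tRNA to the ribosome, had log2 fold changes of -1.69 in control HSC/MPP over LK/CLP and 1.56 in leukaemia over control HSC/MPP. Eef2, the translocase, had -1.79 and 1.67, and Pabpc1, the poly(A)-binding protein, -2.17 and 1.61. These genes were thus as far apart as the ribosomal proteins in both comparisons.

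Ribosome biogenesis genes moved less evenly. Of 68 tested, 54 were lower and 3 higher in control HSC/MPP than in LK/CLP with a median of -0.88, and 37 were higher and 2 lower in leukaemia than in control HSC/MPP with a median of 0.53, where 33.7% of all genes were lower in the first comparison and 27.6% higher in the second. In LK/CLP 25 of the 68 were lower in leukaemia and 1 was higher, with a median of -0.43, where 7.14% of all genes and 1 of 76 ribosomal protein genes were lower. Npm1, a nucleolar chaperone, had log2 fold changes of 1.21 ± 0.26 (SE, adjusted p = 9.19e-04) in leukaemia HSC/MPP and -0.80 ± 0.26 (SE, adjusted p = 0.0361) in leukaemia LK/CLP over control. Ncl had 1.36 and -0.61, of which the LK/CLP value did not pass.

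Genes of the mitochondrial ribosome had smaller medians. Of 73 mitochondrial ribosomal protein genes, 35 were lower and 1 higher in control HSC/MPP than in LK/CLP, with a median of -0.41, and 20 of 76 were higher and 1 lower in leukaemia than in control HSC/MPP, with a median of 0.20. Of all genes, 33.7% were lower in the first comparison and 27.6% higher in the second, so the second count is no more than the share over all genes. Among ribosomal proteins outside the symbol rule, Rack1, Fau and Rps3a1 were lower in control HSC/MPP than in LK/CLP, and Rack1 (1.57), Fau (1.46) and Rps3a1 (1.33) were higher in leukaemia HSC/MPP. Of the paralogs, Rps27l had 52.6, 47.1, 49.6 and 25.4 TPM in leukaemia BM HSC/MPP and 10.8, 10.7, 10.5 and 8.89 TPM in control HSC/MPP, a log2 fold change of 1.62 ± 0.20 (SE, adjusted p = 3.29e-06). Rpl22l1 had 24.6, 20.5, 26.7 and 23.2 TPM in leukaemia BM HSC/MPP and 15.2, 16.0, 17.5 and 9.65 TPM in control HSC/MPP, and its log2 fold change of 0.25 ± 0.19 (SE, adjusted p = 0.286) did not pass.

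Among regulators, 9 of 18 mTORC1 pathway genes were lower and 5 higher in control HSC/MPP than in LK/CLP, and 8 were higher and 1 lower in leukaemia than in control HSC/MPP, where 33.7% of all genes were lower in the first comparison and 27.6% higher in the second. Larp1, which binds the TOP tract, had -1.73 ± 0.18 (SE, adjusted p = 1.87e-07) in control HSC/MPP over LK/CLP and 1.41 ± 0.24 (SE, adjusted p = 7.34e-05) in leukaemia over control HSC/MPP. Myc, which drives transcription of ribosome genes, had -1.39 ± 0.20 (SE, adjusted p = 7.92e-06) and 1.18 ± 0.33 (SE, adjusted p = 0.00700). Of 13 tested p53 target genes, 4 were higher and 0 lower in leukaemia than in control HSC/MPP, and of 11 small nucleolar RNA host genes 2 were higher and 2 lower. With 27.6% of all genes higher in leukaemia HSC/MPP, the p53 target and host gene counts were near or under the share over all genes. Zfas1, a small nucleolar RNA host gene, was lower in leukaemia LK/CLP than in control (-1.04 ± 0.21 (SE, adjusted p = 0.00114)).

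Of 10270 genes compared across the 36 libraries, the non-members named next followed the log2 level of the median member most closely. They were Rps3a1 (Pearson r = 0.997), a ribosomal protein gene outside the symbol rule, and the processed pseudogenes Rps3a2 (0.996), Rps6-ps4 (0.996), Gm6136 (0.995) and Gm15427 (0.994). All share the libraries' depth and background, and several may take reads of members through shared sequence. Within the family, 73 members had r over 0.95 with the median member, and the least alike were Rps10 (0.33), Rpl24 (0.79) and Rpl13a (0.92).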

How the data were processed

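RNA-seq was measured in 36 mouse libraries. The authors deposited whole-number counts per gene in 2 tables, 1 for 24 leukaemia and 1 for 12 control libraries. They are named as normalised, but their totals differ freely (1909638 to 30442297), so they were analysed as raw counts. Per the labels' protocols, RNA came from a Zymo microprep kit and libraries from the SMARTer stranded total RNA kit, v3. Per the submitters' processing notes, the build was GRCm39 and DESeq2 was used. No source used here names the aligner, the counting or the strand setting. Of 55414 identifiers, 52133 had a symbol and an exon length in the reference annotation and 3281 did not.

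Tests used edgeR 4.0.16 in R 4.3.3 (quasi-likelihood, TMM scaling, Benjamini-Hochberg adjustment, threshold 0.05) in 3 fits: leukaemia (15870 genes), control (11178) and all marrow (15303). A gene entered if its count exceeded 3 times the uniform background for its exon length plus 10 counts in at least 4 libraries. DESeq2 1.42.0, other scalings and filters, a background covariate, a replicate block, leaving out each library and leaving out those that stood apart were alternatives. The scripts were tested on simulated data. Libraries of a mouse share its label: same-mouse libraries correlated in their deviations with a median r of 0.31 (-0.24 to 0.67) over 12 leukaemia pairs and -0.03 (-0.46 to 0.14) over 12 control pairs, so the block by mouse comes from the labels. Replicates were separate mice within a group. The p-values cover the spread between them.

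The members and lists were chosen with earlier results of these data known. Named in each comparison were up to 8 called members per direction by size, or the 3 of smallest p, and in the main comparisons also Rplp0, Rplp1, Rplp2, Rpsa, Rps19, Rpl5, Rpl11, Rps14, Rpl22, Rps6, Rpl3, Rpl10, Rps4x and Rpl38. For levels they were the 5 highest, 5 lowest and 5 most variable. No promoter window was in the table for Rpl23a, Rps20, Rps27a, Rpl32, Rpl21, Rpl7, Rplp1, Rpl36, Rps14, Rpl8, Rpl29, Rpl3, Rpl30, Rps29 and Rpl17, among others. Some genes that these rules would name are not reported here.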

Additional observations from a re-analysis of the deposited data

Results flagged for a closer look

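In each group of 4 libraries, Dixon's 95% criterion was applied to the share, the background and the median level. It was also applied to the levels of Rpl8, Rpsa, Rplp0, Rps6, Rpl10, Rplp1, Rps12, Rps24, Rps19, Rpl11 and Rpl5. The other named members were not screened. These were 126 groups in all, of which chance alone flags about 1 in 20. The criterion marked 4. The median member was at 691 TPM in leukaemia BM LK/CLP replicate 4, against 586.7 to 603.1 TPM in the other 3 libraries. The background was 26.5% of counts in leukaemia BM HSC/MPP replicate 4, against 8.962% to 9.116% in the others, and the shares of ribosomal protein counts beside it are given above. Rpsa was at 147 TPM in control HSC/MPP replicate 4, against 208.3 to 218.1 TPM in the others. Rpl5 was at 609 TPM in leukaemia BM LMPP replicate 2, against 502.6 to 514.5 TPM in the others.

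The difference between HSC/MPP and LK/CLP was not alike in leukaemia and control marrow: tested as an interaction with edgeR's quasi-likelihood test, 71 of 76 members passed an adjusted p of 0.05, against 19.1% of all genes in either direction. Disease cannot be told apart from the miRNA transgene, the set of mice and the table.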

How the results depend on the processing

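Most results kept their direction and their side of the threshold: apart from leaving out single libraries, 154 of 169 settings of the main results left the value in place, and of 3026 settings of 145 named values 2978 did, 36 lost and 12 gained a call, and none that was called changed sign. Another 26 named values, none of them called, changed sign under some setting. With the background share as a covariate, called members numbered 41 in control HSC/MPP against LK/CLP, 21 in control LMPP against LK/CLP, 1 in leukaemia against control LMPP and 2 in leukaemia against control LK/CLP. The cause was not tested. In all of these comparisons but the last, the backgrounds of the groups did not overlap. In leukaemia against control LK/CLP the count of 1 became 2 with RLE scaling, 3 with upper-quartile scaling, 3 with DESeq2, 0 with a count filter, 0 with no filter and 2 without the libraries that stood apart. DESeq2 called 5 members in control HSC/MPP against LMPP. Leaving out each library in turn gave 0 to 48 called in that comparison, 0 to 2 in leukaemia against control LK/CLP, 73 to 76 in HSC/MPP, 73 to 74 in LMPP and 67 to 74 for the interaction. Shares of all genes called under these settings are not given here. The median level of control HSC/MPP over LK/CLP, -2.51 on the log2 TPM scale, was -2.02 by CPM, -2.12 as a share of counts above background and -2.17 after subtracting background. That of leukaemia BM over control LMPP, 2.14, was 1.44 by CPM.

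A replicate block by mouse called 0 members between CNS and BM, 74 and 74 in control HSC/MPP and LMPP against LK/CLP, and changed no call of a member. Over all genes it called 414 between CNS and BM, in place of 0. Replicates of leukaemia and control share only a number, and a replicate block on it called 73 members in HSC/MPP, 74 in LMPP, 1 in LK/CLP and 70 for the interaction. Another scaling moved the median of all genes by up to 0.55 on the log2 scale (control LMPP over LK/CLP with no scaling, -0.55), and the direction of the members in control and in leukaemia against control HSC/MPP and LMPP held under each. Members of low counts, Rpl24, Rps10 and Rpl13a, are uncertain as measured, since each shares sequence with a read-through gene that held 0 counts.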
